A study of Mus musculus with 14 samples.

Results

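Deep intragenic H3K27ac regions are stretches of acetylated chromatin that lie inside a protein-coding gene but far from its start and end. They were found from the summits of the peaks, the base where the signal of a peak is highest, in 7 H3K27ac libraries. In each library the 30000 summits with the highest score were kept. These were widened by 250 bp to either side, and overlapping ones were joined over libraries on chromosomes 1 to 19 and X. A region was a member when 2 to 6 libraries had a kept summit in it, when it lay within the span of a protein-coding gene, and when it was more than 20 kb from the start and end of every protein-coding gene. That gave 4175 members of 60208 regions, or 6.93%. The scores themselves chose the members, so the number of libraries that hold a member and its height are given as descriptions.

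The cells were CD11b+ tumour-associated macrophages that had been isolated by FACS. Their hosts were NSG mice, which lack T, B and NK cells, with orthotopic xenografts of the human glioblastoma T387 in the brain, so the macrophages come from a host without them. Pracinostat, an inhibitor of histone deacetylases, was given by mouth at 30 mg/kg on 4 days a week for 3 weeks, from day 7 after the tumour was implanted. The labels' account of its preparation states 3 mg/kg instead. Control mice received the DMSO-containing solvent alone. There were 3 DMSO and 4 pracinostat libraries made with an H3K27ac antibody, and the same numbers made with non-specific IgG, by CUT&Tag, a method that uses a transposase tethered to the bound antibody to cut out the chromatin around it. The question was whether the drug alters the acetylation of these regions. The labels call the samples biological replicates without tying them to animals, and the p-values below therefore measure only how these samples spread, which may be technical.

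H3K27ac, acetylation of lysine 27 of histone H3, marks active promoters and enhancers. It is written by the acetyltransferases p300 and CBP and removed by deacetylases. Many enhancers lie in the introns of long genes, where they can act on the host gene or on a neighbour. Others of these positions hold the promoter of a shorter transcript of the same gene. In macrophages the enhancer repertoire is set by PU.1 together with factors such as AP-1, C/EBP and RUNX, and signals from the tissue select among these sites.

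Sequences were at hand for windows around annotated transcription starts, and windows of the host gene's own starts overlap 131 members (3.14%). Shown are 5 that lie in members kept in 6 libraries, with percentiles of 74.0 to 91.5 averaged over libraries, and that differ in the motifs they carry. Each runs from 250 bases before to 50 bases after the annotated start, in the direction of the gene, on GRCm38 (mm10) from RefSeq. Capitals mark the PU.1 core GAGGAAG, the AP-1 site TGANTCA or the RUNX site TGTGGT, on either strand. Tbc1d14 (chr5:36530574-36530873, minus strand), Cyth1 (chr11:118212682-118212981, minus strand), Frmd4a (chr2:4559504-4559803, plus strand), Arhgef7 (chr8:11758115-11758414, plus strand) and Entpd1 (chr19:40659520-40659819, plus strand) follow in that order.
Tbc1d14: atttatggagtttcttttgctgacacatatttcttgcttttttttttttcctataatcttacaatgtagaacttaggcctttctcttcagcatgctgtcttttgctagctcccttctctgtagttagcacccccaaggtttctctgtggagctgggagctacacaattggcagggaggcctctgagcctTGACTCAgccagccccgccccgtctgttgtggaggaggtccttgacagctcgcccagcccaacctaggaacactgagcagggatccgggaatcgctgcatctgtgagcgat
Cyth1: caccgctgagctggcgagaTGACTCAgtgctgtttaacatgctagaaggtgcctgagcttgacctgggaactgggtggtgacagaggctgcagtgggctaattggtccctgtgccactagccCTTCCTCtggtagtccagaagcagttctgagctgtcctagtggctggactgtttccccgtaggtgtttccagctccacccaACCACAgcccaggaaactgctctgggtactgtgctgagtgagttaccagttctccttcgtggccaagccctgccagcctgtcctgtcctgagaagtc
Frmd4a: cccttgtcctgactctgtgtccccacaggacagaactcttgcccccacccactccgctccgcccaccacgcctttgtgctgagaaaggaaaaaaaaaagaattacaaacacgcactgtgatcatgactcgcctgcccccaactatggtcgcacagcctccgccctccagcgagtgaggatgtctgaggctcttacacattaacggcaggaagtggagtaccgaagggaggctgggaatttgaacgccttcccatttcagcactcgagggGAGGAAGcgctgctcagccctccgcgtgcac
Arhgef7: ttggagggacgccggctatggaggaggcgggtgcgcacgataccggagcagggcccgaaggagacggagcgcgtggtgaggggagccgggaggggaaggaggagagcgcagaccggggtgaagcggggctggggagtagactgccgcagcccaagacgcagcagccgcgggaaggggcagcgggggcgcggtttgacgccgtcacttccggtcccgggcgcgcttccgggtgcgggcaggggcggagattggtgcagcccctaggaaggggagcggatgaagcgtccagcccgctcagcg
Entpd1: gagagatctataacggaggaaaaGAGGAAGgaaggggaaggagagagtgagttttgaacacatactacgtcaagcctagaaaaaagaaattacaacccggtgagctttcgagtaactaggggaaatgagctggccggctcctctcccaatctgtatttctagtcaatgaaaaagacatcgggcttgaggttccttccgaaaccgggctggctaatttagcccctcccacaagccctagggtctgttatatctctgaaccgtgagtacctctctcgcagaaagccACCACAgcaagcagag

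The window of Cyth1, a cytohesin that activates ARF GTPases, holds all 3 motifs. That of Tbc1d14, a Rab GTPase regulator of autophagy, holds an AP-1 site, and that of Frmd4a, a scaffold of cell polarity, a PU.1 core. The Entpd1 window, in the gene of the ATP-hydrolysing ectoenzyme CD39, holds a PU.1 core and a RUNX site. None of the 3 was found in the window of Arhgef7, an exchange factor for Rac and Cdc42. Among the 136 host-gene starts in members, 16.9% of windows held the PU.1 core, against 12.2% of 716 deep host-gene starts that lay in no region and 13.4% of all 32619 windows of the same length. The AP-1 site was in 13.2, 8.38 and 7.85%, and the RUNX site in 15.4, 16.9 and 16.6%. A motif is a match of letters and no evidence that a factor binds. The windows in members were also richer in CpG, with a median of 12.5 CpG and a GC content of 57.3%, against 5 and 49.7% at deep starts in no region. At 44 deep starts in regions kept by all 7 libraries the medians were 23.5 and 64.7%. The part of base composition in the motif shares was not tested.

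Annotated starts covered few members. Those members stood higher by the scores that also chose all members, so their height is a description. Of 936 deep starts of the host gene's own transcripts, 136 (14.5%) had their window in a member and 44 (4.70%) in a region kept by all 7 libraries. Of 1275 deep starts of non-coding and other genes, 51 (4.00%) lay in a member. Members with a host-gene start had a median percentile of 62.6, averaged over libraries, against 53.9 for the 4007 members without any annotated start. A percentile is the rank of a region's highest score among 48069 regions ranked within a library, 100 being the highest. A kept summit in 6 libraries was found at 19.8% of the members with a host-gene start and 10.6% of those without a start. Their median widths were 793 and 715 bp. A wider region more easily meets a window and takes its highest score over more sequence. The part of width was not tested. In every library the kept share was higher with a host-gene start, by the narrowest margin in DMSO 2 (39.7 against 35.5%) and by the widest in pracinostat 2 (64.9 against 46.7%). The start base itself lay inside the region in 117 of the 131, where the others overlapped only the window around it.

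The list of DMSO 2 stands apart. It had 53503 summits, against 208401 to 291042 in the other 6, and 34928 of them shared its lowest score. To reach 30000, 11425 of these ties were taken in file order, which keeps all of them on chromosomes 1 and 10 to 14, some on chromosome 15 and none on the other 13. In 514 members the kept summit of DMSO 2 was such a tie, and 227 members needed it to reach 2 libraries. DMSO 2 kept 54.0% of members on the first 6 chromosomes and 24.7% on the last 13, while the other libraries kept 42.6 to 49.6% and 45.4 to 56.0%. Built without DMSO 2, with a kept summit in 2 to 5 of 6 libraries, there were 3514 regions of this kind, which overlap 3475 members. The counts of members, hosts and lists are given with and without this library below.

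Most members had some signal in most libraries, counting the kept summits that chose them. In DMSO 1, 2 and 3 a kept summit lay in 48.9, 35.7 and 44.3% of members, and in pracinostat 1 to 4 in 52.6, 47.6, 49.3 and 53.1%. Any summit of the full list lay in 90.3, 47.9 and 88.9% in DMSO and in 92.7, 94.3, 88.2 and 92.8% in pracinostat. Apart from DMSO 2, then, each library had some signal at 88.2% or more of the members, and 2712 members (65.0%) had a summit in all of the other 6. So did 69.4% of the regions of 2 to 6 libraries at other places and 37.7% of all regions. The full lists include the kept summits, so the rule fixes part of these shares. IgG libraries had a summit in 4 to 32 members each, at most 0.766%. At least 1 IgG library had one in 120 members (2.87%), close to the 2.38% of all regions, and no member had one in 3 or more.

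**Figure D1:**
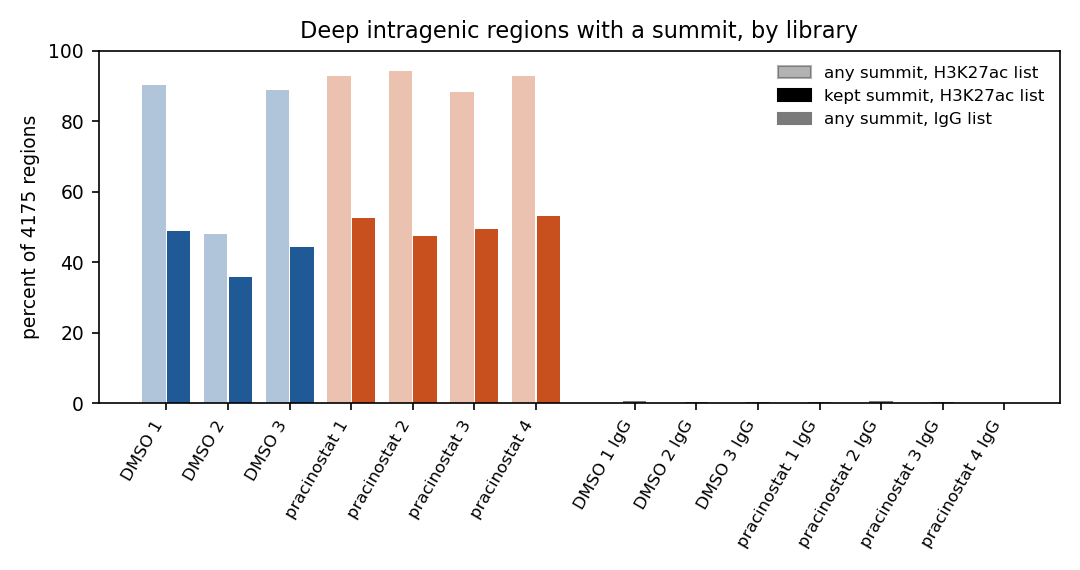
Percent of the 4175 regions (y axis) with a summit in each library (x axis), for the full H3K27ac list (pale bars), the 30000 kept summits (solid bars; DMSO blue, pracinostat orange) and the IgG list (grey bars). DMSO 2 stands lowest of the H3K27ac libraries in both measures, and the IgG bars do not exceed 0.766%.

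By recurrence, 1736 members were kept in 2 libraries, 821 in 3, 639 in 4, 526 in 5 and 453 in 6. Their median percentiles were 44.0, 53.9, 61.5, 68.7 and 76.8 in that order, the order that the rule itself builds in. Without DMSO 2 there were 1532 members in 2 libraries, 796 in 3, 664 in 4 and 522 in 5. Just outside the rule lay 7631 deep regions kept in 1 library, with a median of 30.7, and 435 kept in all 7, with 88.3. The members had a median width of 720 bp and lay 20001 to 644451 bp from the nearest gene end, with a median of 41676 bp. Nearest above the 20 kb limit were regions in Atp6v0d1 (20001 bp) and Tbc1d23 (20005 bp), with mean percentiles of 48.0 and 58.3. Nearest below it were regions in Ostf1 (19995 bp) and Mapk8 (19990 bp), with 51.4 and 35.9.

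Members clustered in a minority of long genes. Of 5852 genes with any sequence that far from gene ends, 1175 (20.1%) hosted a member, and 491 of these hosted 1. A set of 103 genes hosted 10 or more and held 1457 members. Neighbours in 1 host lay a median of 3042 bp apart, and 3009 members (72.1%) had another within 10 kb. Built without DMSO 2, there were 1083 hosts, 74 of them with 10 or more, the median distance was 3682 bp and 67.9% had another within 10 kb. Over the 582.7 Mb of deep sequence the density was 7.16 members per Mb, the scale on which genes of different length are compared below.

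Tns3, a tensin of focal adhesions, hosted the most, with 30 members or 155 per Mb. Frmd4a followed with 28 (50.3 per Mb), then Lrrfip1, which binds nucleic acids in the cytosol, with 24 (261 per Mb) and the homeodomain factor Cux1 with 24 (85.9 per Mb). Elmo1, which works with DOCK proteins to activate Rac during engulfment, hosted 22, as did Akap13, an anchor of protein kinase A, and Rad51b, a gene of DNA repair. Another 20 each lay in Rptor, the scaffold of mTORC1, Zmiz1, a transcriptional coactivator, Ldlrad4, an inhibitor of TGF-beta signalling, and Capzb, the beta subunit of actin capping protein. Capzb (339 per Mb) and Rxra (341 per Mb, 16 members), the shared partner of many nuclear receptors, were the densest hosts among those with 16 members or more. Built without DMSO 2, Tns3 (26) and Frmd4a (25) still hosted the most, followed by Cux1, Akap13 and Rad51b with 21 each. Lrrfip1 then had 19, Elmo1 18, Rptor 18, Capzb 14 and Rxra 13, while Zmiz1 and Ldlrad4 had 20 as before.

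Host genes were then grouped by role, in lists chosen with earlier results of these data known. Microglia and macrophage surface genes held 110 members in 21 of 35 long genes, at 43.2 per Mb. Ldlrad4, Itgb5, an integrin subunit that takes part in uptake of dying cells (18 members), Ptprj, a receptor phosphatase (13), and Tgfbr2, a TGF-beta receptor (11), hosted most of them. The markers Adgre1, Mrc1 and P2ry12 and the scavenger receptor gene Msr1 were among the long genes with 0 members, and Itgam had 1. Cytokine, interferon and NF-kB genes held 43 members at 40.3 per Mb, 11 of them in Tnfaip8. Irak2, a kinase of Toll-like and interleukin-1 receptors, had 6 members, at 362 per Mb.

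Macrophage and stimulus-response transcription factors held 253 members in 34 of 55 long genes, at 29.3 per Mb. The ETS factor Etv6 had 19, Zfhx3 17, and Bach2, a repressor related to AP-1, and Runx1 16 each. Rac activation and phagocytic cup genes held 202 in 30 hosts (22.8 per Mb), led by Elmo1, Srgap2 (17), which shapes membranes and turns off Rac, and Prex1 (16, but 9 without DMSO 2), a Rac exchange factor. Deacetylases, acetyltransferases and corepressors held 70 at 18.4 per Mb, with 20 in Zmiz1 and 10 in Arid1b, a chromatin remodelling subunit. Phosphoinositide and PKC genes held 124 at 16.6 per Mb, endosome, lysosome and autophagy genes 76 at 15.4, and cyclic AMP genes 75 at 13.4. Cell cycle kinases and cyclins held 14 at 11.8 per Mb, of which 9 were in Cdk6. Nuclear receptors held 21 at 6.12 per Mb, below the 7.16 of all genes, and 16 of these were in Rxra alone.

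The lists of other cells held fewer members per Mb than the 7.16 of all genes, though single genes in them held more. Neuron and astrocyte genes, which are among the longest of all, held 14 members in 44.8 Mb, or 0.313 per Mb, 6 of them in the calcium channel gene Cacna1a. Endothelial and mural genes held 3 in 3.27 Mb. Lymphocyte genes held 0 in 1.61 Mb. The oligodendrocyte list held 11 members, at 2.16 per Mb. All lay in 1 gene, Mbp, at 156 per Mb of its own deep sequence. This is the myelin basic protein gene, which also yields golli transcripts outside myelin. The list of neutrophils and mast cells had only 1 gene long enough, and says nothing here.

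Lists that were far apart in H3K27ac had overlapping ranges over libraries in IgG. Kept H3K27ac summits lay at 33.4 to 63.7 per Mb deep inside the microglia and macrophage surface genes and at 0.223 to 0.827 per Mb deep inside the neuron and astrocyte genes, over the 7 libraries. The highest neuronal value was that of DMSO 2, and the other 6 lay between 0.223 and 0.380. IgG summits lay at 1.18 to 7.07 and at 0.760 to 7.75 per Mb of the same sequence, and at 0.927 to 7.61 over all genes. IgG lists were not cut to equal length, so overlap of these ranges alone says little. IgG of DMSO 1 to 3 lay at 7.07, 6.29 and 4.32 in surface genes, against 7.75, 4.07 and 4.92 in neuron and astrocyte genes. In pracinostat 1 to 4 the values were 1.18, 6.29, 1.97 and 1.18, against 0.916, 3.71, 2.28 and 0.760. Without DMSO 2 the members built anew lay at 40.1 per Mb in the surface genes, 25.2 in the transcription factors, 19.1 in the Rac and phagocytic cup genes and 0.290 in the neuron and astrocyte genes.

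**Figure D2:**
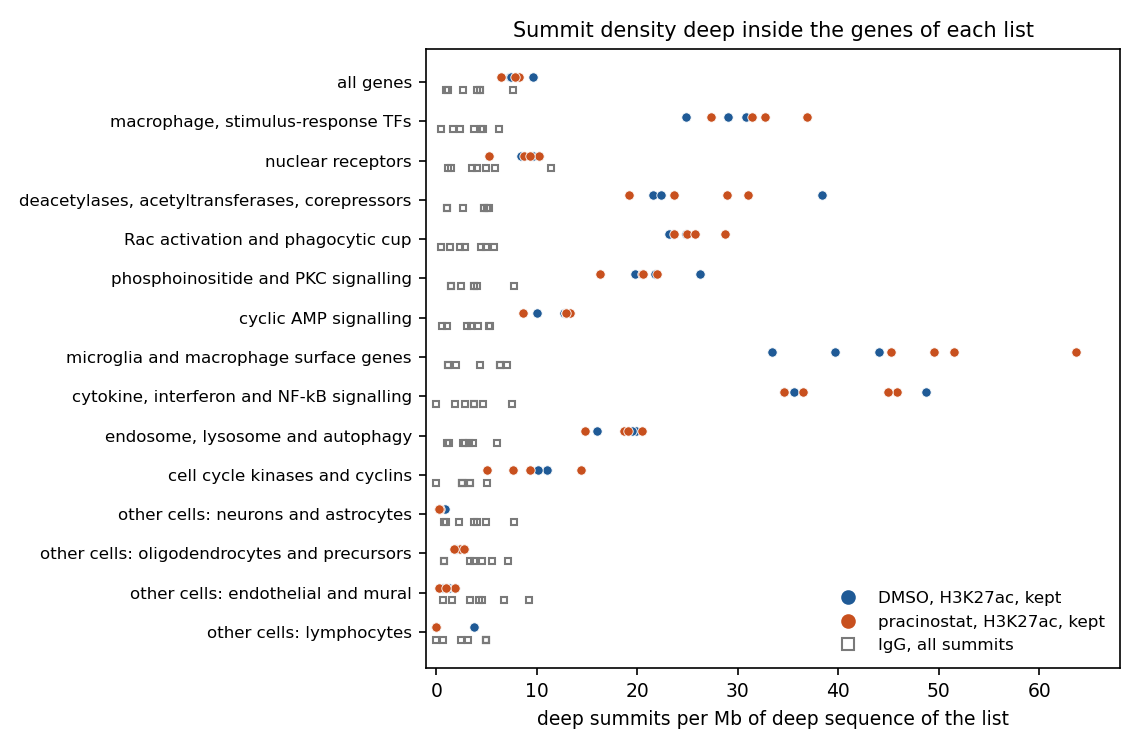
Deep summits per Mb of deep sequence (x axis) for the genes of each list (y axis); circles are the kept summits of each H3K27ac library (DMSO blue, pracinostat orange) and open squares all summits of each IgG library. The surface genes lie between 33.4 and 63.7 in every H3K27ac library, the neuron and astrocyte genes at 0.827 or less, while IgG overlaps between the lists.

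The label of the cells was checked at gene ends, which the rule did not use. Of 10 macrophage and microglia markers, 6 to 9 had a kept H3K27ac summit within 1 kb of either end of the gene in each library. No library had one at any of 6 lymphocyte or 6 neuron and astrocyte markers. From 0 to 2 of 6 neutrophil markers, 0 to 2 of 6 endothelial and mural markers and 0 or 1 of 6 oligodendrocyte markers had one. In the full lists, which reach down to low scores, the ranges were 9 to 10 of 10 for macrophages and microglia, 4 to 6 for neutrophils, 1 to 4 for lymphocytes, 2 to 5 for endothelial and mural cells, 2 to 4 for oligodendrocytes and 0 to 2 for neurons and astrocytes. IgG libraries had a summit at no more than 2 markers of any cell type. The part of other CD11b+ cells such as neutrophils in the results was not tested. A larger share of cells with a mark and more of the mark per cell cannot be told apart in these bulk samples.

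Hosts were also acetylated at their ends more often than other long genes. Of the 4677 long genes with no member, 25.6 to 30.3% had a kept summit within 1 kb of an end, over the 7 libraries. This share was 39.3 to 46.4% among the 491 genes with 1 member, 45.0 to 50.8% among the 398 with 2 to 4, 42.6 to 53.6% among the 183 with 5 to 9 and 51.5 to 61.2% among the 103 with 10 or more. Hosts of more members are longer, with a median span of 78.4 kb without a member and 164 kb with 10 or more. In IgG the share was at most 2.69% of genes with no member and at most 5.83% of those with 10 or more. With members built without DMSO 2, the shares in the other 6 libraries were 25.98 to 30.7% for genes with none and 54.1 to 63.5% for the 74 with 10 or more. Of the 103 genes, 19.4% had no kept summit at an end in any library, against 57.02% of those with no member.

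**Figure D3:**
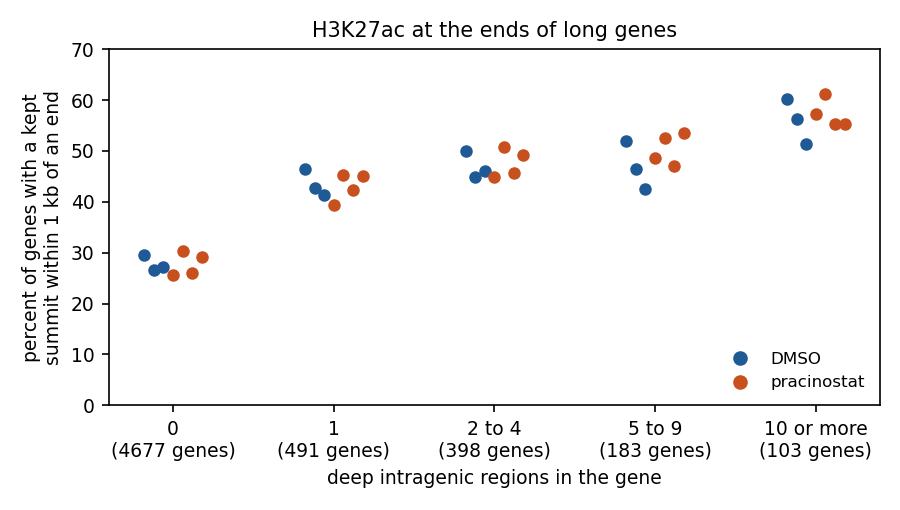
Percent of long genes with a kept H3K27ac summit within 1 kb of either end (y axis), by the number of deep intragenic regions in the gene (x axis); each point is 1 library (DMSO blue, pracinostat orange). All 7 libraries lie between 25.6 and 30.3% for genes with none and between 51.5 and 61.2% for genes with 10 or more.

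Within their hosts the members lay somewhat closer to the 5′ end. Of 3407 members in 1 host of known strand, 1837 (53.9%) were nearer the 5′ end, against 50.1% of the deep sequence itself. Built without DMSO 2, it was 1562 of 2884 (54.2%). The share among deep kept summits was 51.4 to 54.0% in the H3K27ac libraries, lowest in DMSO 2, and 47.4 to 51.9% in IgG. With each host divided into 10 bins of equal length, density was 3.11 per Mb in bin 1 at the 5′ end, 9.68 in bin 5 and 3.79 in bin 10 at the 3′ end. The outer bins reach 20 kb from an end only in the longest genes, so they come from fewer genes than the middle ones.

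**Figure D4:**
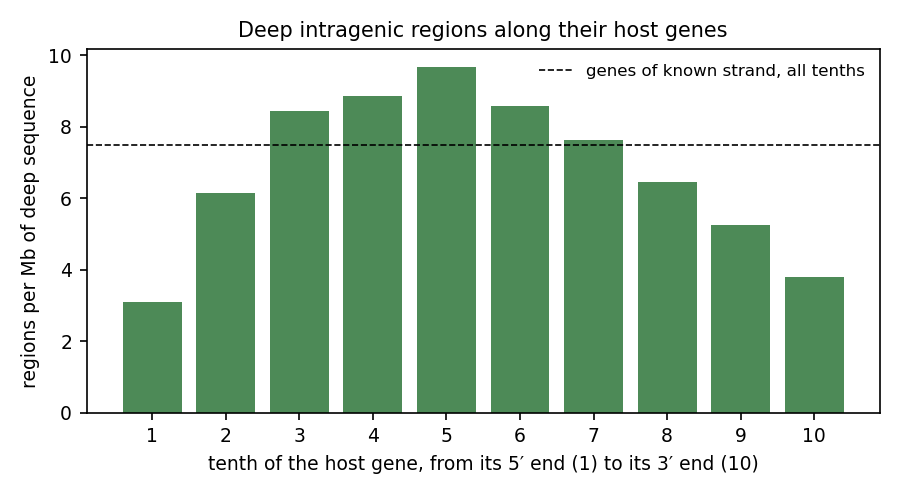
Deep intragenic regions per Mb of deep sequence (y axis) in 10 bins of equal length from the 5′ to the 3′ end of the host gene (x axis), over genes of known strand; the dashed line is the density over all bins. Bin 5 is highest at 9.68 per Mb and bins 1 and 10 are lowest, at 3.11 and 3.79.

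The 5 members that ranked highest over the 7 libraries are given as a description. That of Rufy3 (chr5:88629895-88631302), an adaptor of lysosome transport, stood at percentiles of 99.2, 60.8 and 99.2 in DMSO 1 to 3 and 99.1, 92.8, 98.7 and 96.1 in pracinostat 1 to 4. The Tbc1d14 region, which holds the start printed above, stood at 98.9, 98.7 and 50.9 in DMSO and 95.8, 98.5, 97.4 and 99.98 in pracinostat. In DMSO 2, 60.8 is the value shared by all regions at its lowest score, and 25.2 that of all regions without a summit. Both regions were near the top in all libraries but 1. The region of Vgll4, a cofactor of TEAD factors, stood at 93.6 or more except in DMSO 3 (53.8). Those of Ccdc12 and Cyth1 stood at 86.6 or more except in pracinostat 3, at 62.0 and 56.4. Groups overlapped at all 5.

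From the role lists, 3 of the members picked for the highest mean percentile over these libraries are given as a description. At Zfhx3 (chr8:108722395-108724048) the DMSO libraries stood at 99.3, 96.8 and 94.8 and the pracinostat libraries at 89.0, 98.8, 86.5 and 59.7. At Itgb5 (chr16:33914545-33915695) they stood at 79.0, 60.8 and 99.5 and at 93.5, 96.4, 94.1 and 99.5. For Adcy7, an adenylyl cyclase, the values were 81.1, 60.8 and 99.4 with DMSO and 87.7, 94.2, 91.5 and 99.8 with pracinostat. None of the 3 passed the test between treatments, with adjusted p = 0.891 each (limma).

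The share of kept summits that lay deep inside genes did not pass the test between treatments. It was 14.2, 18.6 and 14.4% in DMSO 1 to 3, or 15.7 ± 2.51% (SD, n = 3), and 15.5, 12.6, 16.0 and 15.1% in pracinostat 1 to 4, or 14.8 ± 1.52% (SD, n = 4). The groups overlapped. The difference of -0.933 percentage points had p = 0.600 in a 2-sided exact permutation test, and 0.83 after Benjamini-Hochberg adjustment over 4 places. The smallest p the 35 splits allow is 0.0286. Without DMSO 2 the difference was 0.514 points. In the full lists the share was 21.8 ± 1.71% and 22.3 ± 1.41%, and in IgG it was 23.9 to 25.8%.

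Pracinostat and DMSO libraries were next compared region by region, by percentiles turned into normal scores in a limma model over all 48069 ranked regions, of which 4161 were members. A unit of difference is then 1 SD of the normal distribution on which the ranks were placed. Tied regions, most common in DMSO 2, make the spread of scores in a library smaller than that. One member ranked higher with pracinostat at an adjusted p under 0.05 and 0 ranked lower. Over all ranked regions the shares called were 0.00208% in either direction, and over 18411 ranked regions of 2 to 6 libraries at other places 0% and 0.00543%. At an unadjusted p under 0.05, 201 members (4.83%) ranked higher and 79 (1.90%) lower. Over all ranked regions these shares were 2.58 and 2.57%, and over the regions of like recurrence at other places 4.89 and 2.97%. The higher share is thus near that of other regions with the same recurrence. Without DMSO 2 the counts were 127 (3.07%) and 69 (1.67%), beside 1.83 and 2.30% of all regions and 3.14 and 2.64% at other places.

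With all libraries, the direction of the members was near that of other regions of like recurrence. A difference above 0 was found at 2467 of 4161 (59.3%), beside 49.9% of all ranked regions and 57.7% of those of like recurrence at other places. The median difference was 0.116, beside -0.00136 and 0.106. Regions of 2 to 6 libraries more than 1 and up to 20 kb from gene ends had 59.2% above 0 and those far from genes 61.6%, so a lean of this size is not particular to the members. Without DMSO 2, 2178 of 4135 (52.7%) lay above 0, beside 50.1 and 50.5%. The median was then 0.0343, beside 0.00103 and 0.00576. The mean percentile of members was 47.5 in DMSO 2 and 55.03 to 58.7 in the other 6 libraries. By the rule, a region without a kept summit in DMSO 2 could still be a member, while one with a kept summit in all 7 libraries could not.

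The member that ranked higher lies in Cdk6, the kinase that binds D cyclins to drive cells from G1 into S phase. It spans 1210 bp (chr5:3493951-3495160) and is 35848 bp from the nearest gene end. Its percentiles were 94.9, 25.2 and 81.6 in DMSO 1 to 3 and 99.6, 99.6, 99.99 and 90.8 in pracinostat 1 to 4. DMSO 2 had no summit there, and DMSO 1 stood above pracinostat 4, so the groups overlap. The difference was 1.95 ± 0.406 normal-score units (SE) with an adjusted p of 0.0357 (limma). It was 1.32 with an adjusted p of 0.996 without DMSO 2, so the call rests on that library. The call was also lost without DMSO 3 and without pracinostat 1, 2 or 3, at adjusted p of 0.0909 to 0.510. The other members in Cdk6 number 8, with differences of -0.44 to 0.52, and none of them passed.

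Among members that ranked lower, none passed adjustment, and 5 had the smallest p. At Kansl1 (chr11:104441365-104442047), a subunit of the NSL acetyltransferase complex, percentiles were 77.8, 95.6 and 68.4 in DMSO and 45.8, 7.397, 10.7 and 7.59 in pracinostat, with an adjusted p of 0.445 (limma). In pracinostat 2, 3 and 4 no summit lay there, and the groups did not overlap. At Rptor (chr11:119863289-119863961) they were 96.7, 99.9 and 97.1 and 89.0, 77.9, 56.4 and 78.9, also without overlap, with an adjusted p of 0.616 (limma). Over all members the pracinostat libraries lay wholly below the DMSO libraries at 84 (2.02%) and wholly above at 182 (4.37%), beside 3.05 and 3.37% of all ranked regions and 2.46 and 4.21% of those of like recurrence at other places. The Iqgap1 region, in the gene of a scaffold of Rac1, Cdc42 and actin, stood at 56.2, 77.6 and 94.0 with DMSO and at 9.04, 36.7, 10.7 and 30.0 with pracinostat. Those of Tex14 and Myom1 did not overlap between groups either, with adjusted p = 0.891 (limma) like that of Iqgap1.

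By host list, members at an unadjusted p under 0.05 were counted as a description, beside the 4.83% higher and 1.90% lower of all members and the 2.58 and 2.57% of all ranked regions. Transcription factor genes had 17 higher and 4 lower of 252, Rac and phagocytic cup genes 10 and 0 of 201, and phosphoinositide and PKC genes 9 and 4 of 123. Surface genes had 4 and 0 of 109, cyclic AMP genes 4 and 1 of 75, deacetylase and corepressor genes 2 and 1 of 70, and the remaining lists of macrophage functions at most 1 in either direction. The share of members above 0 was 69.7% in surface genes, 66.7% in Rac genes, 62.8% in cytokine genes, 61.3% in cyclic AMP and in endosome genes, 60.7% in transcription factor genes and 58.6% in deacetylase genes, beside the 59.3% of all members. It was lower in phosphoinositide genes (54.5%), cell cycle genes (7 of 14) and nuclear receptors (42.9%). Without DMSO 2, 52.7% of all members lay above 0, with 58.7% in surface genes, 56.0% in Rac genes, 49.8% in transcription factor genes, 48.8% in phosphoinositide genes, 42 of 70 in deacetylase genes and 45 of 75 in endosome genes. The transcription factor genes then had 4 higher and 4 lower in place of 17 and 4, and the Rac genes 8 and 3 in place of 10 and 0. No list member other than that of Cdk6 passed adjustment.

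Members present in one treatment by kept summits were few. A kept summit lay in all 4 pracinostat libraries and no DMSO library at 27 members (0.647%), here called gained, and in all 3 DMSO and no pracinostat library at 13 (0.311%), called lost. Gained were 0.274% of all regions and 0.747% of those of like recurrence at other places, and lost were 0.153 and 0.427%. The rule uses this presence, so nothing is read from the counts. They also hang on DMSO 2 and its ties. File order left out a lowest-score summit of DMSO 2 at gained members in Lyn, Ninj2, Crtc3, Chst15 and Rab31, and at 1 in Chd9. At the other gained members DMSO 2 had no summit. The lost members in Zranb3, Atp2b4, Tbc1d15, Wdr37, Spata13 and Ankrd33b had a kept summit in DMSO 2 only through such ties. In the full lists all 27 gained members had a summit in at least 1 DMSO library and 5 in all 3. All 13 lost members had one in at least 1 pracinostat library and 6 in all 4. At the others a summit was missing from at least 1 library of the other group. Leaving out any 1 library gave 52 to 89 gained and 21 to 103 lost members, since presence is then asked of fewer libraries. Asked of the full lists instead of the kept summits, presence gave 20 gained and 0 lost members.

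The gained members lay in 26 genes. That of Adgrl2, an adhesion receptor, stood at 51.8, 25.2 and 50.9 in DMSO and 83.0, 95.3, 85.3 and 74.0 in pracinostat. That of Taok3, a kinase, stood at 49.3, 25.2 and 61.8 and at 83.0, 94.2, 93.6 and 64.0. At Chst15, a sulfotransferase of chondroitin, values were 9.99, 60.8 and 34.3 and 78.8, 95.3, 74.4 and 81.0. Groups did not overlap at these 3, nor at Prkag2, a subunit of AMP-activated kinase, and Inpp5b, a phosphatase of phosphoinositides. Others lay in Lyn and Fyb, which act downstream of Fc receptors and integrins, in Itgb5 and in Pde4d, which degrades cyclic AMP. Lyn had a summit in all 7 full lists. None passed adjustment, with adjusted p of 0.891 to 0.895 (limma).

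The lost members lay in 13 genes. At Lpp (chr16:24599457-24600301), a LIM protein of cell adhesions, DMSO stood at 84.7, 77.6 and 87.8 and pracinostat at 50.2, 50.3, 53.5 and 55.9. At Akap13 the values were 69.7, 86.6 and 79.9 and 23.0, 50.3, 31.5 and 34.0. At Fyn, a Src family kinase, they were 77.8, 77.6 and 65.2 and 27.04, 39.7, 10.7 and 30.0. Kansl1 was among them, and so were Arap1, which inactivates Arf GTPases, Ago2, the slicer of RNA interference, and F13a1, a coagulation factor subunit made by macrophages. Adjusted p ranged from 0.445 to 0.919 (limma).

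**Figure D5:**
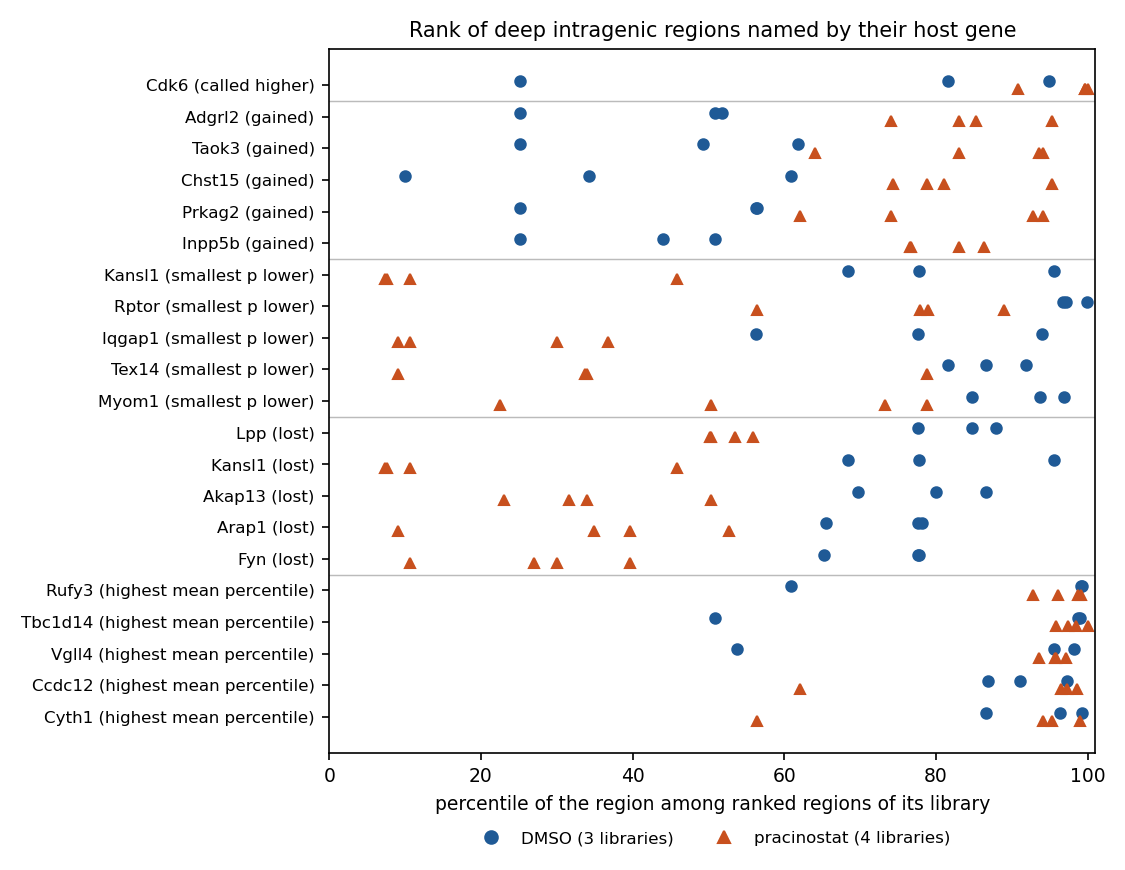
Percentile of each region in each library (x axis) for members named by their host gene (y axis), with the reason for naming in parentheses; blue circles are the 3 DMSO and orange triangles the 4 pracinostat libraries. Cdk6 passed adjustment and its groups overlap; at the gained and lost members the groups do not overlap, which their choice brings about.

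An annotated microRNA overlaps 4 members, and their mature sequences, from RefSeq, are shown to identify them. They are Mir6353 in Pid1, Mir3971 in Slc43a2, Mir3075 in Zmiz1 and Mir6541 in Wdfy2. Capitals mark the seed, bases 2 to 8, and no seed is shared.
mmu-miR-6353: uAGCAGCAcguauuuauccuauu
mmu-miR-3971: cUCCCCACcccuguaccaguga
mmu-miR-3075-3p: aUCCUUGGccuuccuaggugu
mmu-miR-6541: cACAGGCAaggacuucucaag

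The Zmiz1 member with Mir3075 had percentiles of 51.8, 77.6 and 86.8 in DMSO and 73.3, 47.9, 34.9 and 74.0 in pracinostat, and was kept in 4 libraries. Those with Mir3971 and Mir6541 were also kept in 4, with mean percentiles of 60.8 and 54.3, and the one with Mir6353 in 2, with 43.6. Their unadjusted p was 0.130 to 0.566 (limma). The mark on the host's chromatin does not show whether the microRNA was made.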

How the data were processed

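H3K27ac and IgG CUT&Tag libraries of CD11b+ macrophages from DMSO-treated (3 of each antibody) and pracinostat-treated mice (4 of each) were used. The deposited files list peak summits with a -log10 score, 1 library per file, as made by the authors. The submitters' processing notes name Bowtie2, MACS2 2.2.9.1, DESeq2, HOMER and mm10, without roles. The sources used here do not give read depth, the calling threshold, the use of IgG as control, or whether the score is of a p or a q value.

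Each library's 30000 highest summits were kept, with ties in file order. Genes came from the RefSeq table of the same build (21631 protein-coding genes). For the test, a region needed a summit in at least 3 of the 7 full lists; its highest score was ranked within the library, with regions lacking a summit tied at the bottom, and turned into a normal score. Ranks remove list-wide changes of score, so a change of the mark everywhere could not be seen. Groups were compared with limma 3.58.1 (trend, robust; R 4.3.3, statmod 1.5.0) without a block, with Benjamini-Hochberg adjustment over 48069 regions, and shares with a 2-sided exact permutation test (scipy 1.17.1, Python 3.11.15). The code was tested on simulated data.

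The members and gene lists were chosen with earlier results of these data known. Named regions are those past adjustment, the 5 with the smallest p in a direction without calls, the first 5 gained and 5 lost, the 5 with the highest mean percentile, the highest member of the top 6 hosts and of each list, and those nearest the 20 kb limit. Genes given only with counts, the microRNAs, the printed starts and the further gained and lost genes were picked after their values were seen. Alternatives covered list length, extension, merging, distance, recurrence, ranking, model and each library left out. Motifs in the regions, and whether a region is exonic or intronic, were not analysed here.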

Additional observations from a re-analysis of the deposited data

Results flagged for a closer look

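In 7 of 49 groups of 4 libraries, 1 library lay far from the other 3 by Dixon's gap test at the 95% level. Chance flags about 1 in 20 groups, but that rate does not hold for regions chosen as these were. Members are kept in at most 6 libraries, and many were named for a high mean percentile, which favours regions with a single low library. At Ccdc12, Cyth1, Cux1 and Elmo1 the library named below was one without a kept summit. No excess of outliers is therefore read from the count. At the Cdk6 region pracinostat 4 stood at a percentile of 90.8, while the other pracinostat libraries were at 99.6 or more. At Kansl1 pracinostat 1 stood at 45.8, with the next at 10.7. At Ccdc12 pracinostat 3 stood at 62.0 and the next at 96.5, and at Cyth1 the same library stood at 56.4 and the next at 94.2. The Cux1 region stood at 54.3 in pracinostat 1, with the next at 88.7. The Elmo1 region stood at 41.9 in pracinostat 4, with the next at 91.3. In the IgG library of pracinostat 1, 32.3% of summits lay more than 1 and up to 20 kb from a gene end, with the next at 30.7%.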

How the results depend on the processing

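The 1 call, in Cdk6, became 0 with 18000 kept summits, 100 bp extension, ranks from lists of 30000 or list length as covariate. It also became 0 with array weights, a summit in at least 5 lists or no trend. So it did with the summit nearest the centre or members built without DMSO 2. At 50 kb it was 0 since the Cdk6 region, 35848 bp from the nearest gene end, is then no member. Leaving out a library gave 0 to 1 calls, 1 without DMSO 1 or pracinostat 4. In 13 alternatives the Cdk6 region kept its direction and lost the call, among them list length as covariate (1.43, adjusted p = 0.985, limma). The number of members was 2441 with 18000 and 7041 with 50000 kept summits, 6282 at 10 kb, 1615 at 50 kb and 1986 with 3 to 5 libraries. Gained and lost were then 16 and 6, 46 and 35, 48 and 25, and 9 and 3, and by presence in full lists 20 and 0. Without 1 library, gained ranged from 52 to 89 and lost from 21 to 103. The deep share differed by 0.503 points in full lists and by -1.71 to 0.514 without 1 library. The cause of these shifts was not tested, other than that fewer libraries ease the condition on presence and that 50 kb leaves the Cdk6 region out.

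No sign of pairing by replicate number was seen in the ranks, which does not show that same-numbered libraries were handled apart. Correlations of same-numbered deviations were -0.00943, -0.0204 and -0.0230, within a range of -0.0389 to 0.0505 over all 12 pairs, and DMSO 1, 2 and 3 correlated best with pracinostat 2, 3 and 1. With the replicate block there was 1 call, and 171 higher and 72 lower at an unadjusted p under 0.05.

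Of 815 alternatives for 39 named regions, 760 kept direction and side of the threshold and 42 turned direction, in 17 regions that were not called. With 500 bp extension these were Arap1 (0.24), Tns3 (-0.13), Cux1 (0.19) and Irak2 (-0.0481), and with 100 bp Zfhx3 (1.03) and Tbc1d23 (0.35). With list length as covariate they were Rufy3 (-0.43), Lrrfip1 (-0.0102), Elmo1 (0.12), Adcy7 (-0.0979), Irak2 (-0.14) and Mbp (-0.0467). With the nearest summit they were Tbc1d14 (-0.0403), Tns3 (-0.20), Lrrfip1 (-0.44), Rad51b (-0.23) and Irak2 (-0.57). Ranks from lists of 30000 turned Ccdc12 (-0.0385) and Lrrfip1 (-0.0984), array weights Lrrfip1 (-0.0218) and Irak2 (-0.0253), 50000 kept summits Ptprm (-0.0215) and the replicate block Elmo1 (0.40). On leaving out 1 library the difference ranged for Rufy3 from -0.45 to 0.62, Vgll4 from -0.18 to 0.83, Ccdc12 from -0.12 to 0.52, Cyth1 from -0.71 to 0.066, Tns3 from -0.42 to 0.51 and Lrrfip1 from -0.29 to 0.48. It ranged for Cux1 from -0.31 to 0.28, Elmo1 from -0.35 to 0.41, Irak2 from -0.19 to 0.38, Mbp from -0.0277 to 0.57, Ptprm from -0.24 to 0.61 and Tbc1d23 from -0.35 to 0.0921.

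The differences at unadjusted p rest on 3 and 4 libraries, and DMSO 2, with 50.3% of ranked regions lacking a summit, resolves few of them.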
